A study of Mus musculus with 2 samples.

Results

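The genes described here encode the cytosolic heat shock proteins, with Hsf1, the transcription factor that induces most of them. Of 10 listed mouse genes (Hsf1, Hspa1a, Hspa1b, Hspa8, Hspb1, Hspb8, Hsph1, Dnajb1, Hsp90aa1 and Cryab), 9 had at least 1 gene probe whose accession belongs to them, out of 20017 genes named on the array. Their 13 probes were all well above background and unsaturated on both arrays, so all 9 genes passed the filter on dim spots. No probe carried the accession of Hspa1b, which therefore has no value of its own here.

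Heat shock proteins are chaperones that bind unfolded proteins. In unstressed cells HSP70 and HSP90 hold the factor encoded by Hsf1 in an inactive state, and when unfolded proteins draw these chaperones away, the factor forms trimers, binds heat shock elements in DNA and induces their genes. In the kidney, the HSP70 genes and the small heat shock genes Hspb1 and Cryab are also known for their high expression in the medulla, where cells live in a concentrated salt and urea solution.

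RNA came from glomerular regions dissected from kidneys of diabetic male mice of C57BL/6J strain background. Diabetes was induced in every mouse at 8 weeks of age with streptozotocin (STZ), which destroys beta cells, given in citrate buffer, and the mice were killed at 32 weeks. The WT+STZ group was wild type, and the TG+STZ group was labelled as transgenic for overexpression of Sirt1, a protein deacetylase. Each group had 1 array of 1 colour (Cy3), so no value here has a replicate check and the groups could not be tested against each other. How many mice an array stands for and the promoter of the transgene are not given in the sources used here, and no nondiabetic array was analysed here.

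Differences are log2 values, TG+STZ minus WT+STZ, after the 75th percentile of the gene spots of each array was subtracted. That percentile was 0.08 higher for TG+STZ on this scale, so a probe with a slightly brighter spot there can still stand below 0. The error after each is the scanner software's own error of both spots combined. For a gene with several probes it is the error of their mean, which is smaller. Each member probe had an error of 0.20, and the median over all probes was also 0.20. This error describes a single hybridisation, not the spread between mice. Over the 15971 genes measured on both arrays the median difference was 0.00, the SD was 0.26 and 95% of genes lay between -0.52 and 0.49. Sirt1 itself read 2625 intensity units for WT+STZ and 2977 for TG+STZ, a difference of 0.10 ± 0.20. The arrays shared 1 slide scan, and 75.04% and 76.26% of their gene spots were well above background. Defining markers of podocytes (Nphs1 at 827 and 471 units) and of proximal tubule (Lrp2 at 166517 and 171980 units) were all well above background, so the RNA held transcripts of tubule as well as of glomerulus.

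Promoter windows, from 250 bases before to 50 bases after the start site, were available for 6 of the 10 genes in the RefSeq table of build GRCm38.p6. The upstream 250 bases of Hspa1a (chr17:34972157-34972406, minus strand) and Hspa1b (chr17:34959239-34959488, minus strand) are shown to set out how alike these upstream parts are. How alike the transcripts are cannot be read from them. Capitals mark the bases at which the upstream parts differ.
Hspa1a: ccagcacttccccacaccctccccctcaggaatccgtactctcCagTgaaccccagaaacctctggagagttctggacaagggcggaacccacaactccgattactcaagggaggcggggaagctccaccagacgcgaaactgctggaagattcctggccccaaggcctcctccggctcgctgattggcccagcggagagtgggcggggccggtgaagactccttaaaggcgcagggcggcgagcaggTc
Hspa1b: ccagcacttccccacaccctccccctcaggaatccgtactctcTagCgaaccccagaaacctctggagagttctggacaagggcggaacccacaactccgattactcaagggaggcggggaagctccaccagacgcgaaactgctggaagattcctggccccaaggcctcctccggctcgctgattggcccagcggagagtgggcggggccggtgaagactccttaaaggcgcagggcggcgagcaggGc
The upstream parts differed at 3 of 250 bases (98.8% identical), and the whole windows at 4 of 300.

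Heat shock elements were searched as the paired form GAANNTTC or TTCNNGAA and as the triple form GAANNTTCNNGAA or TTCNNGAANNTTC, where N is any base. Each pair of forms covers both strands, and every triple form contains paired ones. Of all 32851 promoter windows in the table, 15.1% held the paired form and 0.603% the triple form. The paired form was present in 5 of the 6 genes (Hspa1a, Hspa1b, Hspb1, Hspb8 and Hsph1), and the triple form in Hsph1 alone. These are counts of genes, whereas the shares above are of windows. The 6 genes had 8 windows, with 2 each for Dnajb1 and Hsph1. Neither form was in the 2 windows of Dnajb1. The stretches below hold the element of Hspa1a (chr17:34972242-34972271, minus strand), the triple element of Hsph1 (chr5:149636279-149636308, minus strand) and both elements of Hspb1 (chr5:135887669-135887918, plus strand), in capitals. These genes are shown because they hold an element and stood higher, level and lower on the TG+STZ array, in that order.
Hspa1a: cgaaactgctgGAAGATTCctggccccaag
Hsph1: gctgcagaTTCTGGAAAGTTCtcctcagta
Hspb1: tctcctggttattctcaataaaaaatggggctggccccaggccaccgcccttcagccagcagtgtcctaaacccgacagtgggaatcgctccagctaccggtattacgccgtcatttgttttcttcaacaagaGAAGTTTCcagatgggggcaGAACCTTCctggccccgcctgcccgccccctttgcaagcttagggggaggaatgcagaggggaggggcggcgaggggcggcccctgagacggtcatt
The element of Hspa1a, which begins at position -104 from the start site, lies in the part that Hspa1b shares with it base for base. In Hspb1 the elements begin at positions -117 and -97. The triple element of Hsph1 begins past the start site, at position 16 or 37 depending on which of its 2 start sites is used. Matches of letters are a description and show neither binding nor regulation.

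The 9 measured genes fell into 3 sets. Hspa1a and Dnajb1, heat-inducible chaperone genes, were 1.36-fold and 1.30-fold higher on the TG+STZ array. Hspb1 and Cryab, which encode small heat shock proteins, were 1.48-fold and 1.41-fold lower. The other 5 genes, namely Hsf1, Hspa8, Hsph1, Hsp90aa1 and Hspb8, lay between -0.09 and -0.03. Of these 5, Hsph1 and Hsp90aa1 are also inducible by heat or stress, so that trait was not particular to the higher set. None of the 9 reached 1.5-fold in either direction, against 1.75% of all genes past that size on the higher side and 1.91% on the lower.

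**Figure D1:**
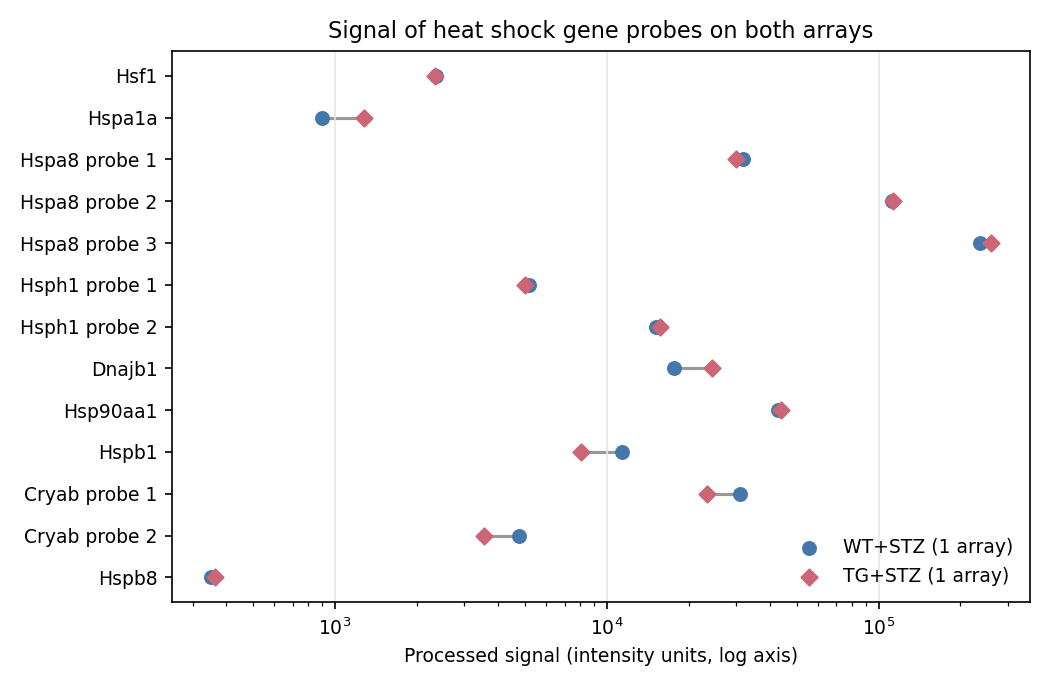
Processed signal in intensity units (log axis) of the 13 probes of heat shock genes, with a blue circle for the WT+STZ array and a red diamond for the TG+STZ array. The symbols lie apart for Hspa1a and Dnajb1, with TG+STZ to the right, and for Hspb1 and both Cryab probes, with TG+STZ to the left.

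Hsf1, the master regulator of the response, read 2354 units for WT+STZ and 2335 for TG+STZ from a single probe. The arrays were nearly level, with a scaled difference of -0.09 ± 0.20. These are transcript values. The factor is mainly controlled after translation, so its activity was not measured.

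Hspa1a encodes the stress-inducible HSP70, which refolds damaged proteins and is scarce in unstressed cells. Its probe (A_55_P2068459) read 895 units for WT+STZ and 1284 for TG+STZ. The TG+STZ array was the brighter, and the scaled difference was 0.44 ± 0.20. Among all genes 3.16% stood as high or higher, and among the genes at or above the median signal 1.77%. That median was 1010 units as a mean of both arrays, so Hspa1a lay near the lower limit of the brighter set. Hspa1a and Hspa1b lie next to each other on chromosome 17 and encode nearly the same protein. The array tables give no probe sequence, so whether this probe also reads Hspa1b transcripts was not tested, and the value cannot be assigned to Hspa1a alone. Hspa1l, the testis-type HSP70 gene beside them, was dim at 30.2 and 31.0 units with a difference of -0.04 ± 0.26.

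Dnajb1 encodes the J-domain protein HSP40, which delivers unfolded proteins to HSP70 and stimulates its ATPase, and is itself induced by heat. Its single probe read 17677 units for WT+STZ and 24345 for TG+STZ. The scaled difference was 0.38 ± 0.20. As high or higher stood 4.01% of all genes and 2.29% of the genes at or above the median signal. Dnajb1 and Hspa1a thus stood on the same side, 0.06 ± 0.29 apart.

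Hspa8 encodes HSC70, the constitutive HSP70 that serves unstressed cells. Its 3 probes read 31753, 112039 and 236293 units for WT+STZ and 30015, 113261 and 258515 for TG+STZ. The probes stood at -0.16, -0.06 and 0.05, on both sides of 0, and the gene at -0.06 ± 0.12. The difference between the arrays of the inducible Hspa1a was 0.50 ± 0.24 above that of the constitutive Hspa8, more than the scanner error of that gap. In signal Hspa8 was far the brighter gene on both arrays. Hspa8 has many processed copies in the mouse genome, and how far each probe reads them was not tested.

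Hsph1 encodes HSP110, a relative of HSP70 that acts as its nucleotide exchange factor and is induced by heat. Its probes read 5178 and 15223 units for WT+STZ and 5003 and 15653 for TG+STZ. Both were close to level, at -0.13 and -0.04, with the gene at -0.08 ± 0.14. Hsph1, whose promoter window held the triple element shown above, was therefore level within the scanner's error.

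Hsp90aa1 encodes the stress-inducible HSP90, which keeps kinases and steroid receptors ready for activation. Its probe read 42702 units for WT+STZ and 43664 for TG+STZ, a scaled difference of -0.05 ± 0.20. The constitutive Hsp90ab1 stood at 136621 and 139941 units and at -0.04 ± 0.20. The inducible and the constitutive HSP90 gene were therefore both level within the scanner's error.

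**Figure D2:**
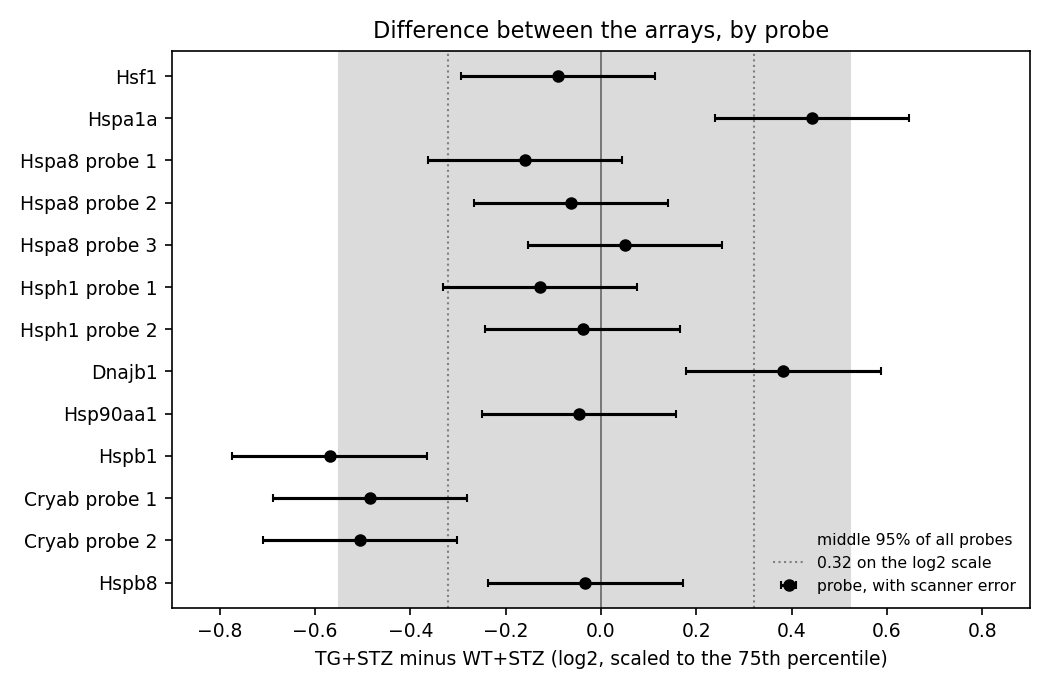
TG+STZ minus WT+STZ (log2) of each probe, with the scanner error as a bar. The grey band holds the middle 95% of all 28993 probes measured on both arrays and the dotted lines mark 0.32 to either side of 0. Hspa1a and Dnajb1 lie right of the dotted line, Hspb1 and both Cryab probes left of it, and the other 8 probes between.

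Hspb1 encodes HSP25, the mouse form of HSP27, a small chaperone that holds unfolded proteins and guards actin filaments. Its single probe read 11355 units for WT+STZ and 8080 for TG+STZ. WT+STZ was the brighter, with a scaled difference of -0.57 ± 0.20, the furthest from 0 of the 9 genes. Of all genes 2.02% stood as low or lower, and of the genes at or above the median signal 0.726%.

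Cryab encodes alpha-B crystallin, a small heat shock protein of lens, muscle and kidney medulla. One of its probes read 30935 units for WT+STZ and 23336 for TG+STZ, and the other 4772 and 3548. They differed by almost the same amount, -0.49 and -0.51, which put the gene at -0.50 ± 0.14. Of all genes 2.74% stood as low or lower, and of the genes at or above the median signal 0.939%. Among the 4 genes beyond their scanner error, Cryab alone had more than 1 probe. It stood 0.07 from Hspb1, within their combined error of 0.25.

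Hspb8 encodes HSP22, a small heat shock protein that works with BAG3 in the disposal of misfolded proteins. At 352 units for WT+STZ and 363 for TG+STZ it had the lowest signals of the 13 probes, and its difference was -0.03 ± 0.20. All 3 small heat shock genes stood below 0, Hspb1 and Cryab by more than their scanner error and Hspb8 by less.

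Of the 9 genes 4 differed by more than their scanner error, against 24.3% of all genes. Past a log2 difference of 0.32, 2 of 9 were higher and 2 of 9 lower, against backgrounds of 5.32% and 6.64%. With 9 genes these shares rest on very few members, and the genes were listed with results of these arrays known. The median of the 9 was -0.06 beside 0.00 for all genes, and 7 of the 9 stood below 0 beside 49.1% of all genes. Their SD was 0.34 beside 0.26 for all genes. The widest gap inside the family, between Hspa1a and Hspb1, was 1.01 ± 0.29.

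**Figure D3:**
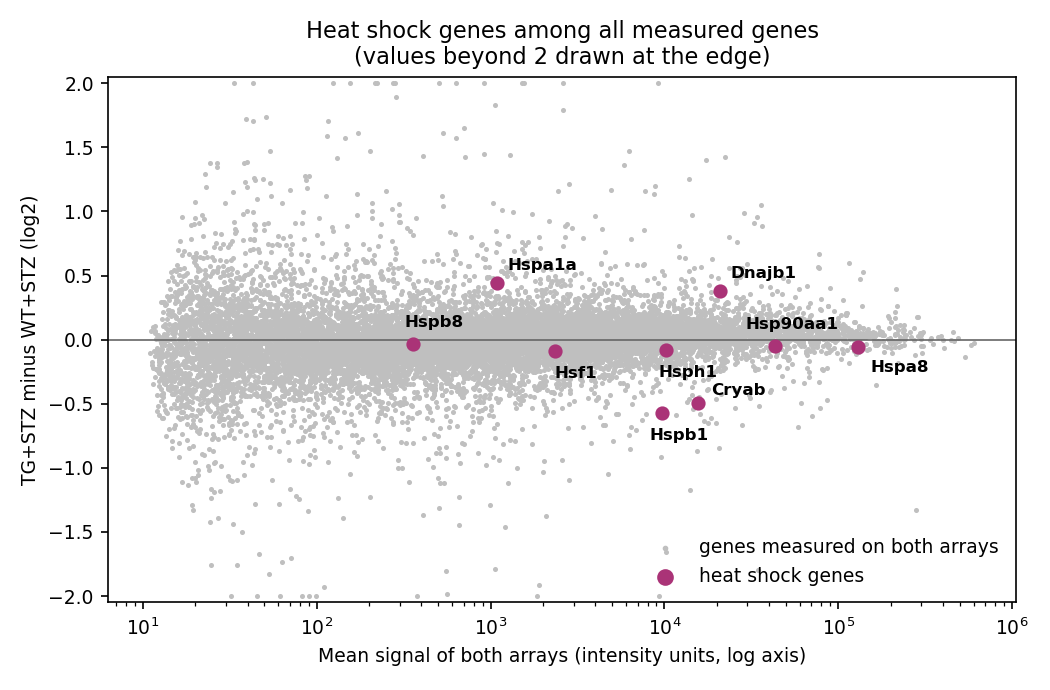
Difference between the arrays (log2) against mean signal (intensity units, log axis) of all 15971 genes (grey) and the 9 heat shock genes (purple). Hspa1a, Dnajb1, Hspb1 and Cryab lie toward the edges of the cloud at their signal, and the other 5 genes lie near 0.

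The wider network was taken from lists of further heat shock, chaperone and co-chaperone genes, those of mitochondria, the TRiC complex and other heat-inducible genes included. Of 62 genes in all lists, 60 were measured on both arrays, with a median of 0.01, 34 above 0 and 26 below. Past 0.32 on the log2 scale, 3 of the 60 were higher (Cryaa, Hspa12a and Fkbp5) and 1 was lower (Hsf5). Of all genes, 5.32% were higher and 6.64% lower by this measure. At 1.5-fold, the same 3 of the 60 were higher and 0 were lower, against 1.75% and 1.91% of all genes. Most of the network thus lay within 0.32 of 0, as did most of all genes.

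Heat shock factors had a median of -0.05 over 4 genes. Hsf5, a factor of germ cells, was lowest at -0.56 ± 0.26 but dim, with 34.6 units for WT+STZ and 24.9 for TG+STZ. Highest was Hsbp1, whose product binds the trimer of heat shock factor 1, at 0.16 ± 0.20. The other HSP70 and HSP110 genes had a median of 0.02 over 7 genes. Hspa12a, a distant HSP70 relative, read 163 units for WT+STZ and 285 for TG+STZ and stood at 0.73 ± 0.21, while Hspa4l, another HSP110 gene, was lowest at -0.12. J-domain genes other than Dnajb1 stayed within 0.10 above and 0.18 below 0, with Dnajb4 at 0.10 and Dnajb2 at -0.18 over 7 genes. All 7 lay below the 0.38 of Dnajb1.

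HSP90 and its co-chaperones had a median of -0.04, with 5 of 12 above 0. Fkbp5, a co-chaperone of steroid receptors that glucocorticoids induce, read 5921 units for WT+STZ and 9431 for TG+STZ and stood at 0.59 ± 0.20. Unc45a, which assists myosin folding, was lowest at -0.23 ± 0.20. Partner and exchange genes of HSP70 had a median of -0.00 over 7, from -0.21 for Bag4 to 0.16 for Bag3, which heat induces and whose product binds HSPB8. Bag3 read 5136 and 6047 units.

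The other small heat shock genes were mostly a little below 0, with 3 of 4 lower. Hspb2, which lies head to head with Cryab on the chromosome, read 887 units for WT+STZ and 816 for TG+STZ and stood at -0.20 ± 0.20, the same side as Cryab but less far. Cryaa, the lens partner of Cryab, went the other way at 1.43 ± 0.20, from 373 to 1059 units on its only probe above background. A further probe of Cryaa, not above background on both arrays, read 7.06 and 17.7 units. Hspb3 was not well above background.

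**Figure D4:**
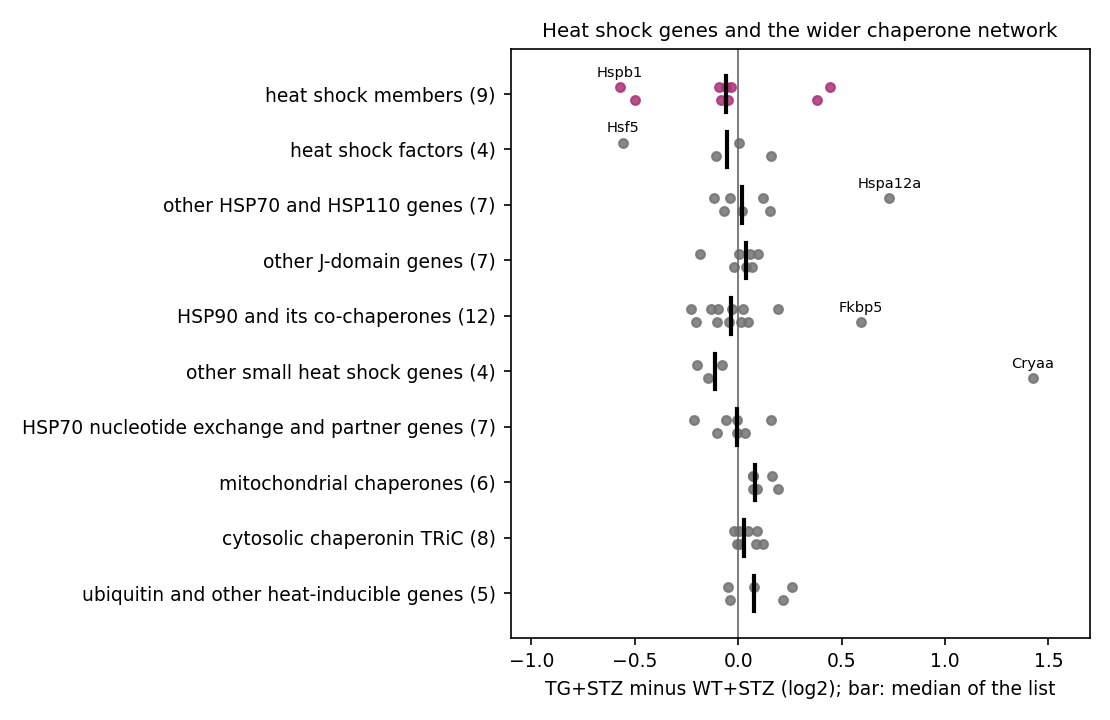
TG+STZ minus WT+STZ (log2) of the 9 heat shock genes (purple) and of 60 further genes in 9 lists (grey), with the number of genes in brackets and a black bar at each median. Single genes beyond 0.5 are named at the ends of each list, among them Cryaa at 1.43, and the medians of these lists lie between -0.11 and 0.08.

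In dissected tissue a lower signal can mean fewer cells of a type or less RNA per cell, and these cannot be told apart. Markers of several cell types were therefore measured beside the heat shock genes. Medians are of scaled differences, but summed signals are unscaled. The 75th percentile of the arrays was 1933 units for WT+STZ and 2042 for TG+STZ, so small rises in a sum can reflect that offset. Collecting duct markers were lower for 8 of 10 genes, with a median of -0.34, and their summed signal was 93552 units for WT+STZ and 86982 for TG+STZ. Slc26a4, a chloride and bicarbonate exchanger of intercalated cells, was furthest at -0.63 and Hsd11b2 stood at -0.44. Loop of Henle markers were lower for 6 of 8, with a median of -0.18, and their unscaled summed signal, which Umod dominates, was 382640 and 410402 units. Mesangial and smooth muscle markers were lower for 8 of 9, with a median of -0.19 and sums of 31584 and 29483. Hspb1 and Cryab stood below each of these medians, and the part of these cells in their values was not tested.

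Genes of the inner medulla and papilla were divided, with 5 of 9 lower, a median of -0.06 and sums of 53471 and 55985 units. Slc6a12, the betaine transporter that hypertonic cells induce, read 849 units for WT+STZ and 256 for TG+STZ, a difference of -1.81. The urea transporter gene Slc14a2 stood at -0.67, but its probes disagreed at -1.16 and -0.18. Akr1b3, the aldose reductase that makes sorbitol, was level at -0.06. Slc5a3 stood at -0.26 and Nfat5 at -0.075. The 4 genes above 0 were Aqp4 at 0.36, Krt19 and S100a6 at 0.15 each and Crym at 0.07. The medullary genes thus did not share one direction, and their part in the values of Hspb1 and Cryab was not tested.

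Podocyte markers were lower for 6 of 10 with a median of -0.08 and sums of 34846 and 31691, proximal tubule markers for 7 of 9 with a median of -0.03 and sums of 1245232 and 1271531, and endothelial markers for 6 of 7 with a median of -0.08 and sums of 25082 and 24673. Each of the 10 leukocyte markers stood below 0 (median -0.47), with sums of 15853 and 15027, most of them Itgam at 12789 and 12445. Of the 8 markers of skeletal muscle, a rich source of Cryab and Hspb1, 4 (Ckm, Myh4, Mylpf and Myl1) were not well above background on either array, and Myh1 was above it for WT+STZ alone. The other 3 summed to 366 and 336 units and had a median difference of -0.51, with Acta1 at -0.51 ± 0.21, Tnnt3 at -0.57 ± 0.36 and Tnni2 at 0.17 ± 0.21 (scanner error). Their part in the values of Cryab and Hspb1 was not tested. Fat cell genes were higher in TG+STZ, with Cfd at 4.82, Cidec at 1.28 and Fabp4 at 0.34. Their sum was 11588 and 16731 units, most of it Fabp4 at 11503 and 15379. Adipoq, Plin1 and Ucp1 were well above background for TG+STZ alone. Ucp1 read 3.63 units for WT+STZ against 274 for TG+STZ, Adipoq 7.07 against 156, and Plin1 10.6 against 46.8. Lep was not well above background on either array. Whether fat cells add to the signal of Hspa1a, Dnajb1 or Hspa12a was not tested.

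Immediate early genes, which respond within minutes to handling of tissue and often go with heat shock genes, did not share one direction. They were lower for 7 of 9 with a median of -0.07 and sums of 8771 and 10799 units. Dusp1, a phosphatase of MAP kinases, was higher at 0.93 ± 0.20 (1438 against 2891 units), and Atf3 was lowest at -0.38 ± 0.21. Fos, the classical early gene, was dim on both arrays at 43.5 and 40.2 units and stood at -0.19. Their part in the values of Hspa1a and Dnajb1 was not tested.

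**Figure D5:**
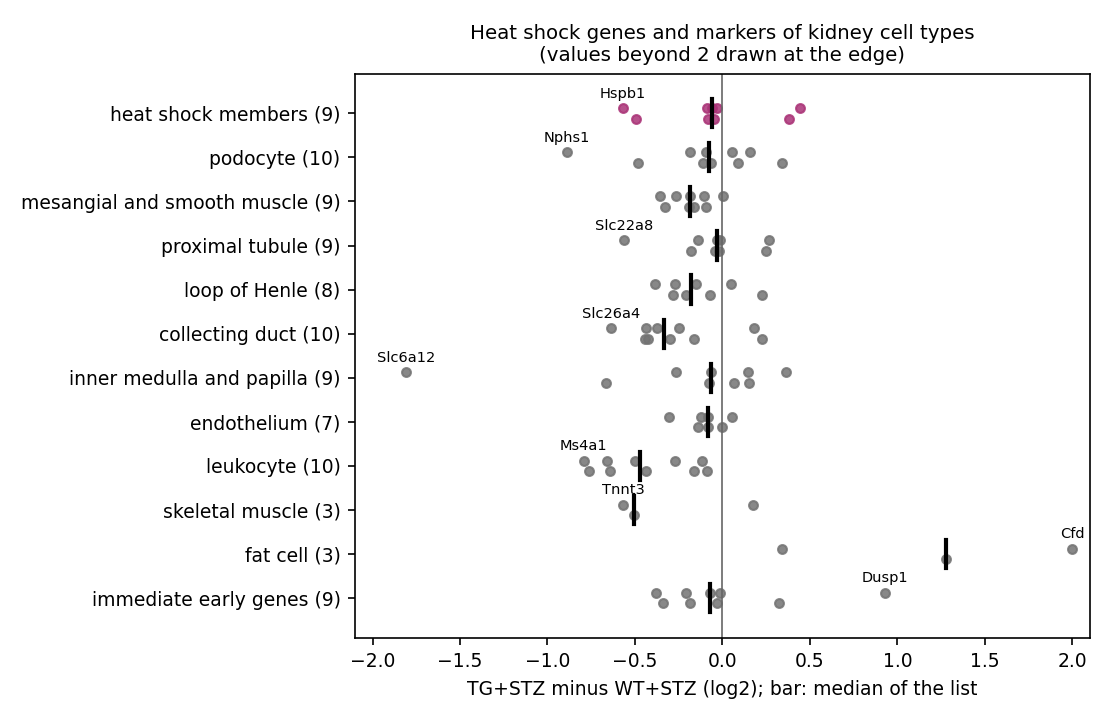
TG+STZ minus WT+STZ (log2) of the 9 heat shock genes (purple) beside markers of kidney and other cell types and immediate early genes (grey), with a black bar at each median and the furthest genes named. Collecting duct, leukocyte and smooth muscle markers lie mostly left of 0, fat cell genes right of it, and Cfd at 4.82 is drawn at the edge.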

How the data were processed

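Labelled RNA was read on 2 Agilent arrays of 1 colour. The deposited scanner tables give each spot as an intensity on a linear scale, background-subtracted and detrended within its array by Agilent Feature Extraction 10.7.1.1, per the file headers, while version 10.3.1.1 is given in the submitters' processing notes. The deposited value table held the same intensity at all 44397 spots of both arrays (exactly equal). Its columns had medians of 158 and 162, and no scaling between the arrays had been applied.

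Log2 intensity minus the 75th percentile of the 43020 non-control spots of each array was used. The percentile was 1933 and 2042 intensity units. Outlier spots (114 and 109) were left out. A probe had to be well above background and unsaturated on both arrays, and probes of a gene were averaged. Probes were named by accession through a RefSeq table of GRCm38.p6: 26410 of 39426 had a symbol. The printed promoter coordinates are those of that RefSeq table's build, and the array files' own grid cites another build.

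With 1 array per group, differences were described by their size, by thresholds of 1.5-fold and of 0.32 on the log2 scale and by the share of all genes past them, with no test. The number of arrays limits the precision. The members, lists and thresholds were chosen with earlier results of these data known. All members, Sirt1, the highest and lowest gene of each chaperone list and up to 2 genes of each marker list were to be named. Some genes that this rule takes are not reported here. Any further gene named was picked with its value in view. The steps were tested on simulated data. Alternatives were normexp (offset 50, on spot medians), 5 other scalings (loess span 0.3), 2 other filters, the brightest probe, the value table, other fold thresholds and counting probes. Normexp ran in limma 3.58.1 under R 4.3.3, loess in statsmodels 0.14.6, and all else in Python 3.11.15 with pandas 2.3.3 and numpy 2.4.6.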

Additional observations from a re-analysis of the deposited data

How the results depend on the processing

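Under the 10 alternatives of scaling, background, filter and probe choice, Hspa1a stayed between 0.41 and 0.48, Dnajb1 between 0.34 and 0.42, Hspb1 between -0.61 and -0.53 and Cryab between -0.53 and -0.46. Hspa8 (1 alternative) and Hspb8 (2) changed sign close to 0. No member moved by more than its scanner error. Several alternatives could not move members, or could do so only in part. The value table held the same intensities, and all 13 member probes passed the main filter, so the other filters changed nothing. The brightest probe could change only genes with several probes. Median centring, the 75th percentile over detected spots and spike-in centring shift every gene by the same amount. Of the 9 members, 0 were at least 1.5-fold higher or lower. With quantile normalization, loess on signal or the 75th percentile over detected spots 1 was 1.5-fold lower, Hspb1, and at the lower threshold of 0.32 on the log2 scale 2 were higher and 2 lower. The median of the wider chaperone list was 0.01, but 0.046 with spike-in centring. It fell below 0 under quantile normalization (-0.019), loess on signal (-0.011) and the 75th percentile over detected spots (-0.011). Among the separate lists, medians changed sign for the other HSP70 genes and proximal tubule markers (1 alternative each). Those of HSP70 partner genes, TRiC and skeletal muscle markers did so under 2 each. Hspa1a and Hspa1b could not be joined, since no probe carried the accession of Hspa1b. No paired analysis was possible because each group has 1 array. Of the values away from 0, Hspa1a, Dnajb1 and Hspb1 rest on 1 probe each.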

Other observations

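Chaperones outside the cytosolic heat shock family were close to level. All 6 mitochondrial chaperone genes were above 0, by 0.07 to 0.19, with a median of 0.08. Hspd1, which encodes HSP60, was highest at 0.19 ± 0.20 (93576 against 113024 units), and Clpb, a disaggregase, was lowest at 0.07 ± 0.14. None of the 6 differed by more than its scanner error. The 8 subunits of TRiC, the ring that folds actin and tubulin, had a median of 0.03 and ran from -0.02 for Cct5 to 0.12 for Tcp1, and 2 of the 10 alternatives turned the sign of this median.

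Other genes that heat induces had a median of 0.08 over 5. Hmox1, which encodes a heme-degrading enzyme, stood at 0.22 ± 0.14 (1867 against 2401 units). Serpinh1, the collagen chaperone HSP47, was lowest at -0.05, and Ubb stood at 0.08.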
